A study of Sus scrofa with 8 samples.

Results

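Long noncoding RNA (lncRNA) genes are transcribed and spliced like messenger RNA genes but have no annotated protein product. The promoters described here are those of the lncRNA genes of the RefSeq annotation of the pig genome (Sscrofa11.1) on chromosomes 1 to 18 and X whose transcription start site (TSS) lies more than 5 kb from the TSS of every protein-coding gene. There were 4234 such genes among 5399 lncRNA genes and 28077 genes of all kinds on these chromosomes. The other 1165 lncRNA genes start within 5 kb of a protein-coding TSS, where a peak may belong to either gene. ChIP-seq, which sequences the DNA fragments that an antibody recovers with a fixed protein, was performed in pig embryonic fibroblasts (PEFs). These were primary cells taken from Large White fetuses aged 35 days and kept in culture for 24 h, with no further treatment. The marks were H3K4me3, H3K27ac and the architectural protein CTCF, with 2 replicates for each, and each of the 6 libraries was analysed as a list of peaks. Nothing in the labels says that the replicates came from separate animals or cultures, so that the spread between them may be technical.

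At an active promoter, nucleosomes next to the TSS carry trimethylation of lysine 4 of histone H3 (H3K4me3), which is laid down where transcription starts and is frequent on unmethylated CpG-rich DNA. Acetylation of lysine 27 (H3K27ac) marks active promoters and also active enhancers, many of which are transcribed. CTCF binds a long DNA motif and holds the ends of chromatin loops. Many lncRNA genes are expressed in few tissues, and some start at enhancers or in sequence derived from transposons.

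The promoters of 3 lncRNA genes are shown here because each represents a class described below, and CpG dinucleotides, whose density goes with H3K4me3, are in capitals. MEG3 is an imprinted lncRNA gene expressed from the maternal copy. LOC110260308 had the highest mean H3K4me3 fold enrichment of all these lncRNA genes, and LOC110257068 the highest H3K27ac among those without H3K4me3. Each sequence is the RefSeq Sscrofa11.1 sequence of 300 bases on the strand of the gene, from 250 bases upstream of the TSS.
MEG3, chr7:121656003-121656302, plus strand: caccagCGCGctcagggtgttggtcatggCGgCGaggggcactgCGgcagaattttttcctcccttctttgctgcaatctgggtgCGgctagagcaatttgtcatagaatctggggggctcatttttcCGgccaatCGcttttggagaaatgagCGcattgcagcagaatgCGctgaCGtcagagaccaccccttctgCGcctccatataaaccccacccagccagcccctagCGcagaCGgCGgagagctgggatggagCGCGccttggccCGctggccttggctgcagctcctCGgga
LOC110260308, chr4:88965972-88966271, plus strand: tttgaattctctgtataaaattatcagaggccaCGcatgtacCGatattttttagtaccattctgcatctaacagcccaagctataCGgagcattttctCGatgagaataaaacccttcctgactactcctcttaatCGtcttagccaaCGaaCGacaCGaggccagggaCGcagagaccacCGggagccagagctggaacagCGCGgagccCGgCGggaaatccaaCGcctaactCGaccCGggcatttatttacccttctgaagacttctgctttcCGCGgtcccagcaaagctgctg
LOC110257068, chr15:134350498-134350797, minus strand: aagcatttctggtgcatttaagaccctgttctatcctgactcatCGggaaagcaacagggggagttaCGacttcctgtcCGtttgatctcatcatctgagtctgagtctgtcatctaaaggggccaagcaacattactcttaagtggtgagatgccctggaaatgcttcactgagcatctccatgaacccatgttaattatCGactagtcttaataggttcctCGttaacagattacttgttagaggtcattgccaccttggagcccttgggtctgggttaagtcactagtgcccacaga
There are 19 CpGs in the window of MEG3, 19 in that of LOC110260308 and 5 in that of LOC110257068. All 3 windows lack the GC box GGGCGG on both strands.

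The lncRNA TSSs rarely carried a promoter mark in PEFs. An H3K4me3 peak lay within 1 kb of the TSS of 734 lncRNA genes in replicate 1 and 783 in replicate 2, or 17.3% (95% Wilson interval 16.2 to 18.5) and 18.5% (17.4 to 19.7). The background over all genes was 56.1% and 56.3%. The share of lncRNA genes was 17.9% ± 0.818 (SD, n = 2), against 69.6% ± 0.0145 of 19487 protein-coding genes, a difference of -51.7 ± 0.804 percentage points. With 2 libraries, the exact two-sided permutation test that swaps the gene classes within each library cannot give a p below 0.5, and it gave 0.5 for each of the 3 marks. The difference was many times the spread between replicates, and the lncRNA share was lower in both. Some of the protein-coding genes share promoter regions with a neighbour. Against the 15309 protein-coding genes more than 5 kb from any other protein-coding TSS, called isolated protein-coding genes here, the difference in H3K4me3 was -46.9 ± 0.758 points.

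H3K27ac was present at more lncRNA TSSs than H3K4me3. It lay within 1 kb of 939 lncRNA TSSs in replicate 1 (22.2%, interval 21.0 to 23.5) and 962 in replicate 2 (22.7%, 21.5 to 24.0), where the background was 50.9% and 52%. The lncRNA share of 22.4% ± 0.384 differed by -39.5 ± 0.581 points from that of protein-coding genes and by -33.7 ± 0.590 from that of isolated protein-coding genes. The order of the histone marks was thus opposite in the gene classes. H3K27ac exceeded H3K4me3 by 4.84 and 4.23 percentage points at lncRNA TSSs in replicates 1 and 2, whereas at protein-coding TSSs the difference was -8.29 and -6.95. Because H3K27ac peaks are more numerous, 11.4% and 11.7% of all genome positions lay within 1 kb of one, against 5.68% and 6.64% for H3K4me3, and the part of this in the order was not tested. When the peak summit rather than any base had to lie within 1 kb, H3K27ac was still ahead at lncRNA TSSs, by 0.779 and 1.75 points, but at protein-coding TSSs the order was kept in replicate 1 (-8.17) and lost in replicate 2 (0.488).

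CTCF peaks were the least frequent. They lay within 1 kb of 345 lncRNA TSSs in replicate 1 (8.15%, interval 7.36 to 9.01) and 417 in replicate 2 (9.85%, 8.99 to 10.8), with a background of 15.6% and 19%. The mean lncRNA share of 9.0% ± 1.2 lay -11.4 ± 1.69 points from that of protein-coding genes. Each lncRNA share was above the share of genome positions within 1 kb of a peak of the same library, which was 4.37% and 5.04% for CTCF. The lncRNA genes close to a protein-coding TSS were unlike the isolated ones: H3K4me3 was at 82.4% and 82.1% of the 1165, H3K27ac at 73.6% and 74.8%, and CTCF at 21.2% and 26.8%.

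**Figure D1:**
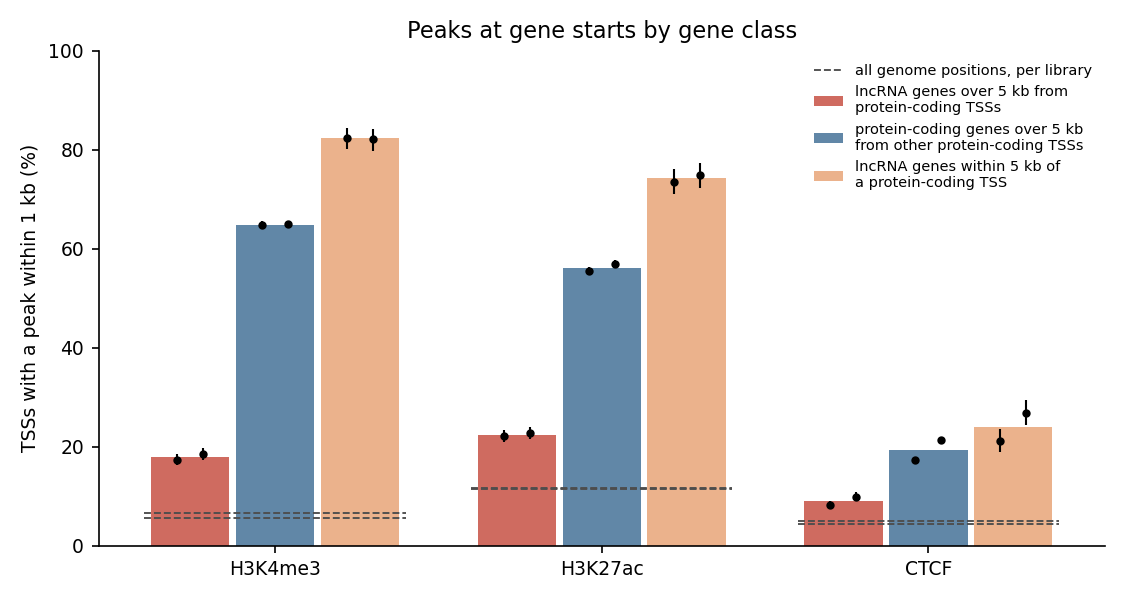
Share of TSSs (%) with a peak within 1 kb for each mark. Bars are means of 2 replicates, points are the replicates with 95% Wilson intervals, and dashed lines give the share of all genome positions within 1 kb of a peak in each library. The isolated lncRNA genes lie at 17.3% and 18.5% for H3K4me3, below the protein-coding genes and the lncRNA genes within 5 kb of a protein-coding TSS, and above the dashed lines for all 3 marks.

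Most lncRNA genes marked in either replicate were marked in both, as 85.2% were for H3K4me3. H3K4me3 was called in both at 698 lncRNA TSSs (16.5%, background 55.4%), H3K27ac at 872 (20.6%, background 50.1%) and CTCF at 336 (7.94%, background 15.2%). Neither replicate had a peak at 3415, 3205 and 3808 lncRNA TSSs, respectively. The fold enrichment of the strongest peak at the TSS, a ratio over the control as the authors' peak caller gave it, was correlated between replicates across the lncRNA genes marked in both (Spearman's rho 0.927 for H3K4me3, 0.907 for H3K27ac and 0.924 for CTCF; genes are not independent replicates). The lncRNA TSSs called in 1 replicate alone had weak peaks, with a median fold enrichment of 3.93 for H3K4me3 (121 genes), 3.39 for H3K27ac (157) and 5.63 for CTCF (90). Genes that start close together can share a peak: 102 of the 4234 have another of these TSSs within 1 kb, and the 734 genes with H3K4me3 in replicate 1 rested on 709 distinct peaks. In the same library, 9 of the 734 had a peak that also reached within 1 kb of a protein-coding TSS.

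H3K4me3 at lncRNA TSSs was narrow and low, and its coverage was highest downstream of the start, as at isolated protein-coding genes. The share of lncRNA genes covered by an H3K4me3 peak was highest 400 bp downstream of the TSS, at 12.5% and 12.9%, and was 3.83% and 4.32% at 10 kb upstream. Coverage by H3K27ac peaked at 200 bp downstream, at 15.1% and 15.9%, over a level of 8.34% and 8.46% at 10 kb upstream. For isolated protein-coding genes, the maximum of H3K4me3 coverage was also at 400 bp, with 60.9% and 61.1%. CTCF coverage of lncRNA genes reached 3.00% and 3.76%.

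**Figure D2:**
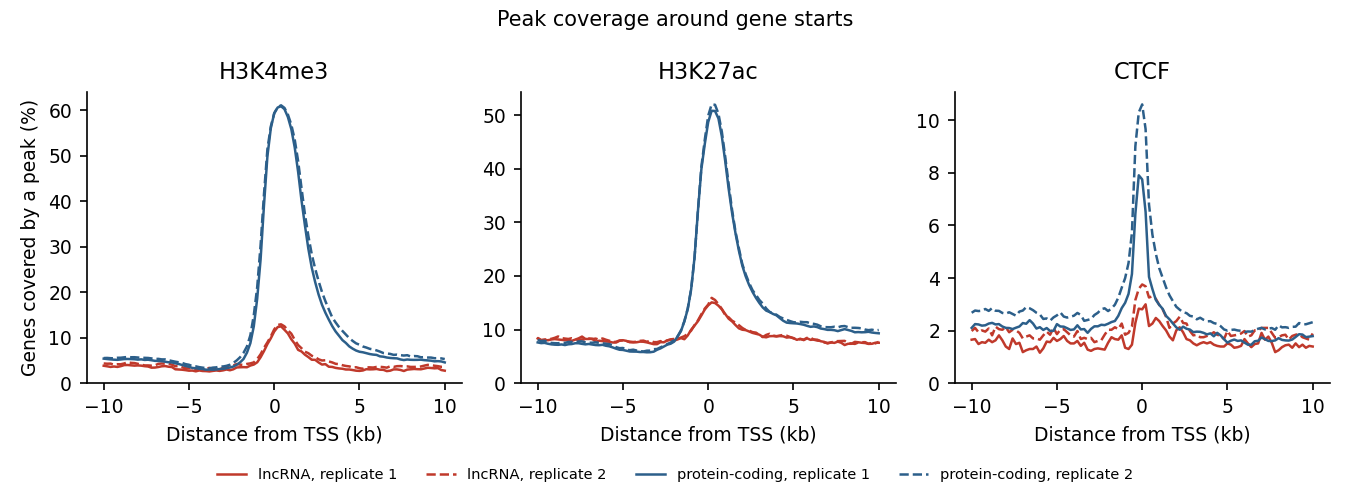
Share of genes (%) covered by a peak at each distance from the TSS (kb, negative upstream, in the direction of the gene), in steps of 200 bp, for lncRNA genes more than 5 kb from protein-coding TSSs (red) and isolated protein-coding genes (blue), with replicate 1 solid and replicate 2 dashed. Coverage of lncRNA genes has a low maximum at 400 bp for H3K4me3 and 200 bp for H3K27ac, and the vertical axes differ between panels.

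Where lncRNA TSSs had H3K4me3, the median fold enrichment of the strongest peak was 16.7 in replicate 1 and 10.4 in replicate 2, against 52.0 and 25.2 at protein-coding TSSs. Fold enrichment was lower in replicate 2 in both classes, so values are compared within a replicate. The peaks were 1522.5 and 1582 bp wide (median), against 2740 and 2902 bp. For H3K27ac, the medians were 8.87 and 9.32 at lncRNA TSSs and 16.4 and 19.2 at protein-coding TSSs. CTCF went the other way: its median fold enrichment was 21.4 in both replicates at lncRNA TSSs, above the 17.2 and 16.8 at protein-coding TSSs. The lncRNA TSSs with CTCF were therefore fewer, and their peaks were not weaker.

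H3K27ac without H3K4me3 was more common at lncRNA TSSs than at protein-coding TSSs. By the calls of both replicates, 517 lncRNA TSSs (12.2%) had H3K4me3 and H3K27ac, 139 (3.28%) had H3K4me3 with H3K27ac in neither replicate, 299 (7.06%) had H3K27ac with H3K4me3 in neither, and 3011 (71.1%) had no peak of these marks in any library. The rest were called in 1 replicate of a mark. Among protein-coding genes the shares were 58.9%, 8.25%, 1.45% and 27.5%. Of the lncRNA TSSs with H3K4me3, 74.9% ± 1.06 also had H3K27ac in the library of the same number, against 86.1% ± 1.19 of protein-coding TSSs. In the other direction, 59.7% ± 2.55 of lncRNA TSSs with H3K27ac had H3K4me3, against 96.7% ± 0.148 of protein-coding TSSs. Both differences were larger than the spread between replicates.

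The peaks of these combinations differed. At the 517 lncRNA TSSs with both marks, the median H3K4me3 fold enrichment was 26.9 and 15.2 in replicates 1 and 2, and at the 139 with H3K4me3 alone it was 8.08 and 5.97. H3K27ac had a median of 13.1 and 14.8 where H3K4me3 was present, and of 6.16 and 6.58 at the 299 TSSs without it. In the 299, the summit of the H3K27ac peak lay within 1 kb of the TSS in 48.2% and 50.8%, so that about as many of these starts lay in the flank of an acetylated region as near its summit. The summit lay within 1 kb in 74.5% and 74.9% of the lncRNA TSSs with both marks. CTCF in both replicates was at 22.6% of the lncRNA TSSs with both histone marks, 21.6% of those with H3K4me3 alone, 10.03% of those with H3K27ac alone and 4.28% of those with neither, and the shares of protein-coding TSSs in these groups were 24.5%, 17.4%, 13.1% and 4.21%.

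The lncRNA gene models with the broadest transcript support carried the marks most often. RefSeq gives, for most predicted models, the number of RNA-seq samples that support every intron. These samples are those of the annotation and not these cells. A gene whose models carry no such number, as curated ones like MEG3, was entered at 0, which held for 95 lncRNA and 4046 isolated protein-coding genes, so that 0 does not mean low support. Of those 95 lncRNA genes, 17.9% (both replicates) had H3K4me3, and of the 713 supported by 1 to 4 samples, 13.3% ± 0.893. Of the 1619 lncRNA genes supported by 5 to 9 samples, 10.2% ± 0.917 had H3K4me3 and 13.7% ± 0.306 had H3K27ac. Of the 148 supported by 100 or more samples, 72.3% (both replicates) had H3K4me3 and 75.3% ± 1.43 had H3K27ac. The gap to isolated protein-coding genes of like support was smaller for H3K27ac than for H3K4me3. With 100 or more samples, those genes had 88.7% ± 0.632 H3K27ac and 91.3% ± 0.0332 H3K4me3. With 25 to 49 samples, H3K27ac was at 31.6% ± 0.875 of 404 lncRNA genes and 33.8% ± 2.13 of 1326 isolated protein-coding genes. The lncRNA share was the lower one in replicate 1 (30.9% against 32.3%) and in replicate 2 (32.2% against 35.3%). H3K4me3 was at 24.1% ± 1.23 and 57.5% ± 0.320 of the same genes. With 1 to 4 samples, H3K27ac was more frequent at lncRNA TSSs (19.3% ± 0.298 of 713) than at isolated protein-coding TSSs (15.7% ± 0.966 of 366). At every other level the mean lncRNA share was the lower one. For 5 to 9 samples, the isolated protein-coding share was 16.8% ± 1.16 of 607.

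**Figure D3:**
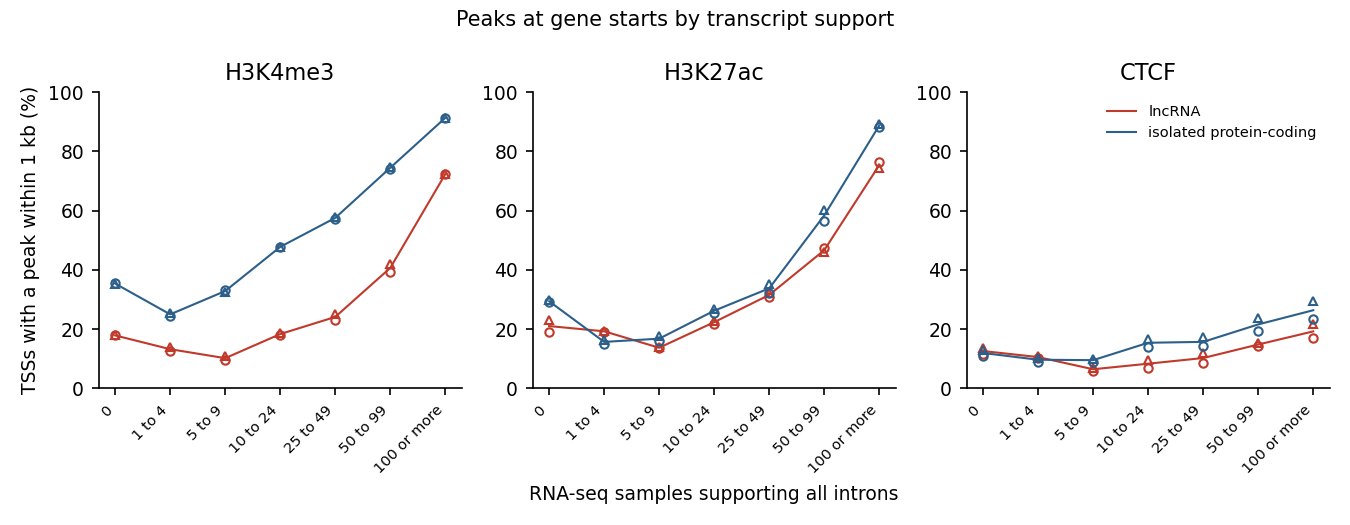
Share of TSSs (%) with a peak within 1 kb, by the number of RNA-seq samples that support all introns of the gene model in the annotation, for lncRNA genes (red) and isolated protein-coding genes (blue), where 0 holds genes with no number given. Lines join the means of 2 replicates, circles are replicate 1 and triangles replicate 2. The lines stay apart for H3K4me3, as at 25 to 49 samples (24.1% and 57.5%), and lie closer for H3K27ac (31.6% and 33.8% at that level).

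H3K4me3 was most frequent at CpG-rich lncRNA promoters. The ratio of observed to expected CpGs in the 1000 bases around the TSS had a median of 0.306 for lncRNA genes and 0.655 for protein-coding genes. It was 0.486 for the 698 lncRNA genes with H3K4me3 in both replicates, 0.283 for the 3415 with none, and 0.288 for the 299 with H3K27ac alone. H3K4me3 was at 6.68% ± 1.09 of the 1101 lncRNA TSSs with a ratio under 0.2, at 20.02% ± 0.309 of 914 with 0.4 to 0.6, at 56.5% ± 0.702 of 302 with 0.6 to 0.8, and at 85.2% ± 1.23 of 115 over 0.8. Isolated protein-coding TSSs had 12.7%, 58.4%, 95.3% and 98.7% in these ranges. In the lowest range, H3K27ac was at 14.7% of lncRNA TSSs in both replicates and at 13.5% ± 0.378 of isolated protein-coding TSSs. CTCF in the highest range (27.8% ± 8.61 of lncRNA TSSs and 27.6% ± 5.17 of isolated protein-coding TSSs) did not differ beyond the spread between replicates.

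**Figure D4:**
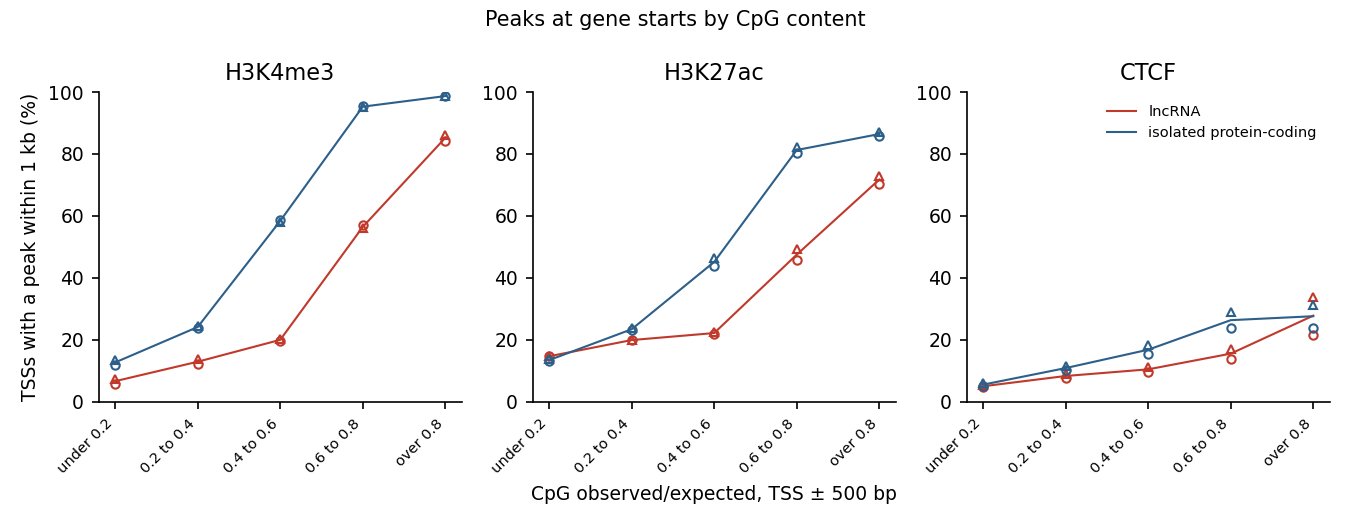
Share of TSSs (%) with a peak within 1 kb, by the ratio of observed to expected CpGs within 500 bp of the TSS, for lncRNA genes (red) and isolated protein-coding genes (blue). Lines join the means of 2 replicates, circles are replicate 1 and triangles replicate 2. H3K4me3 at lncRNA TSSs rises from 6.68% under a ratio of 0.2 to 85.2% over 0.8, below the protein-coding line in each range.

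Transcript support and CpG content were both tied to H3K4me3 at lncRNA TSSs when the other was held in a range. With a ratio of 0.6 or more, H3K4me3 was at 91.2% (both replicates) of the 113 lncRNA TSSs supported by 50 or more samples and at 54.4% ± 0.233 of the 304 with fewer or with no number given. With a lower ratio, it was at 36.5% ± 1.74 of 244 and 11.2% ± 0.871 of 3573. Isolated protein-coding genes had 99.2%, 91.1%, 60.7% and 18.5% in the same 4 groups, more in each. Genes with no number given (95 lncRNA and 4046 isolated protein-coding genes in all) fall in the groups of lower support. Support is therefore not matched between the classes in those groups.

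Among short motifs in the 300-base promoter windows, the GC box went with H3K4me3. GGGCGG, the GC box bound by SP factors, was found on either strand in 16.1% of lncRNA promoters, in 37.7% of those with H3K4me3 in both replicates and in 11.7% of those with none, against 41.3% of the promoters of all genes. TATAAA was in 15.7% of lncRNA promoters and 12.4% of all promoters, and CCAAT in 36.3% and 35.5%. Different motifs of these 3 can overlap by at most 2 bases, and a match is not evidence of binding. The TSS base itself lay in repeat-masked sequence for 43.1% of lncRNA genes and 17.5% of protein-coding genes. H3K4me3 was at 12.5% ± 1.01 of the 1824 lncRNA TSSs in such sequence and at 22.0% ± 0.675 of the other 2410. The authors kept uniquely mapped fragments only, and the part of mapping in this difference was not tested.

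All 3 marks were less frequent at lncRNA TSSs far from protein-coding genes. H3K4me3 was at 30.8% ± 1.95 of the 326 lncRNA TSSs that lie 5 to 10 kb from the nearest protein-coding TSS, at 21.9% ± 0.967 of the 1024 at 20 to 50 kb, at 14.4% ± 0.831 of the 681 at 100 to 200 kb and at 7.83% ± 0.615 of the 230 beyond 500 kb. H3K27ac went from 30.5% ± 1.52 to 9.78% ± 0.307 and CTCF from 14.4% ± 1.30 to 3.26% ± 0.922 over the same range. H3K4me3 was at 17.8% ± 0.744 of the lncRNA TSSs whose nearest protein-coding gene had it in both replicates (3138) and at 18.1% ± 1.09 of those whose neighbour had it in neither (1036). Split by distance, the shares lay in opposite orders. At 5 to 50 kb, it was at 25.4% ± 0.807 of 1314 with a marked neighbour and 21.2% ± 0.907 of 546 without, and beyond 50 kb at 12.4% ± 0.698 of 1824 and 14.8% ± 1.3 of 490. H3K27ac was at 23.1% ± 0.383 of the lncRNA TSSs with an H3K4me3-marked neighbour and at 20.6% ± 0.273 of those without. Among lncRNA genes that start inside a protein-coding gene, H3K4me3 was at 22.5% ± 1.13 of 751 on the opposite strand and at 8.33% ± 0.436 of 162 on the same strand, and it was at 17.3% ± 0.809 of the 3321 intergenic ones. By chromosome, H3K4me3 ranged from 9.18% of lncRNA TSSs on chromosome 16 to 26.6% on chromosome 12.

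Some genes of the lncRNA biotype carry the name of a protein-coding gene. There were 46 of them among the 4234, such as HNRNPU, GSN and CDK6, of which 39 have that symbol and 7 a LOC symbol with a protein's description. H3K4me3 was at 82.6% of the 46 in both replicates, H3K27ac at 80.4% ± 3.07 and CTCF at 25% ± 4.61, each at or above the share of protein-coding genes. The remaining 4188 had 17.2% ± 0.827 H3K4me3, 21.8% ± 0.355 H3K27ac and 8.82% ± 1.17 CTCF.

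All 15 annotated genes of a list of fibroblast markers had H3K4me3 and H3K27ac in both replicates, where all protein-coding genes had them in 68.9% and 60.7% of cases. H3K4me3 in both was at 0 of 4 endothelial, 0 of 4 blood and 0 of 3 pluripotency entries, and H3K27ac at 0, 1 (SPI1) and 0. Other markers did carry the marks: H3K4me3 was at 5 of 5 epithelial, 3 of 4 neuronal, 2 of 3 skeletal muscle and 1 of 3 liver markers, and H3K27ac at 1, 1, 2 and 1. CLDN4 of epithelium, SNAP25 of neurons, DES of skeletal muscle and APOA1 of liver had both. The part of other cell types in the shares at lncRNA TSSs was not tested. A ChIP-seq peak does not tell how many of the cells carry the mark.

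MEG3 was the only symbol of 46 textbook lncRNA names in this annotation, so that the others cannot be looked up by name. Its TSS is at chr7:121656253, intergenic, 64.2 kb from that of RTL1, an imprinted gene of the same domain that had no H3K4me3 in either replicate. MEG3 had H3K4me3 with a fold enrichment of 9.03 in replicate 1 and 9.12 in replicate 2, over peaks of 2709 and 2781 bp. H3K27ac was called in replicate 2 alone, at 2.25. A CTCF peak of 17.5 and 15.5 had its summit 1172 and 1185 bp downstream of the TSS. MEG3 thus had a wide but low H3K4me3 peak, next to CTCF and nearly without acetylation, at a CpG ratio of 0.714.

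The 8 lncRNA genes of highest H3K4me3 fold enrichment (mean of the replicates) were above the upper quartile of protein-coding TSSs with a peak, which was 63.9 in replicate 1 and 31.5 in replicate 2. LOC110260308, on chromosome 4 at 6.89 kb from HSPA6, a heat shock gene, had 81.2 and 58.7 in replicates 1 and 2, with H3K27ac at 35.4 and 38.9. LOC110261561, on chromosome 7, had H3K4me3 at 94.2 and 40.4 but H3K27ac at only 8.70 and 10.8. LOC110255757, on chromosome 11 and 45.9 kb from the nearest protein-coding TSS, had H3K4me3 at 89.9 and 38.6. None of these had a CTCF peak in either replicate. LOC100517973 and LOC100522281 start 26.7 kb from OASL on opposite strands of chromosome 14, at positions 40943932 and 40943919, and share 1 peak with H3K4me3 at 82.3 and 42.3, so they are a divergent pair counted as 2 genes. HNRNPU, whose protein binds nuclear RNA, had H3K4me3 at 85.1 and 33.6 and the highest H3K27ac of the 8, at 43.3 and 57.1. LOC110262054, on chromosome 8, had H3K4me3 at 69.7 and 44.2 with a CpG ratio of 0.298, near the median of all lncRNA genes. Its H3K4me3 summits lay 986 and 942 bp downstream of the TSS, beyond the 500 bp that this ratio covers. LOC106508004, 103 kb from ATP11B, had H3K4me3 at 68.6 and 44.7. A CTCF peak of 45.2 reached within 1 kb of its TSS in replicate 2 alone, with the summit 1723 bp downstream. A replicate 1 peak lying beyond 1 kb would not be counted.

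The lncRNA genes with the strongest H3K27ac and no H3K4me3 lay in wide acetylated regions. LOC110257068, on chromosome 15 at 67.8 kb from SPP2, had H3K27ac at 45.2 in replicate 1 and 49.2 in replicate 2, in a peak of 12873 and 12215 bp whose summit was 262 and 295 bp downstream of the TSS. At the other 5 the summit was farther away. LOC102160616, 19.9 kb from MICAL2, an actin regulator, had 42.3 and 49.6 with the summit 4091 and 4192 bp downstream. LOC106505966, 43.1 kb from LIF, a cytokine of the interleukin 6 family, had 38.8 and 45.7 in a region of 32044 and 31027 bp. LOC110262248, 18.2 kb from KMT2E, had 49.3 and 30.8 in the widest region, 63625 and 63725 bp, with the summit 51303 and 52954 bp downstream. LOC102162136, near CCNL1, had 33.8 and 36.2, and LOC110255727, on chromosome 10, had 31.2 and 36.7. The value of such a peak is that of its summit and not of the lncRNA TSS. The CpG ratio of the 6 was between 0.0231 (LOC102162136) and 0.353 (LOC110257068).

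Most CTCF peaks at lncRNA TSSs contained letters of the core of the CTCF motif near the summit. The letters AGNNGGC, a short part of the motif, were found on either strand within 50 bp of the summit in 60% (replicate 1) and 61.5% (replicate 2) of the 340 and 408 distinct CTCF peaks at these TSSs, and in 24.4% and 21.6% of windows of the same length 1 kb away. Over all CTCF peaks the shares were 58.1% and 57.8%, against 15.9% and 15.9% at 1 kb. The strongest CTCF peaks are shown by the match nearest to the summit of replicate 1, with AGNNGGC in capitals and the sequence read on the strand of the match.
LOC106507592, chr6:48865409-48865449, minus strand: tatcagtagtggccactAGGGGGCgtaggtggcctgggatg
LOC106509556, chr2:132431532-132431572, minus strand: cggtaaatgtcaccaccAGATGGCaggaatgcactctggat
LOC110262282, chr9:51143219-51143259, minus strand: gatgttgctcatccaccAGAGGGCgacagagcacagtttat
LOC102166202, chr13:104471204-104471244, plus strand: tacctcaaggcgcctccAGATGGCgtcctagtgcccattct
LOC110261180, chr6:106658020-106658060, plus strand: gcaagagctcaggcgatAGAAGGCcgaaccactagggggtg
LOC110261023, the other of the 6 lncRNA genes with the highest CTCF, has no match in this window. Whether each marked match, as that of LOC110261180, is the site that CTCF binds was not tested.

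LOC106507592, 35.7 kb from LTBP4, an extracellular matrix gene, had CTCF at 77.9 and 90.4 with the summit 1268 and 1280 bp downstream of the TSS, H3K4me3 at 25.5 and 17.7, and H3K27ac at 6.83 and 12.1. LOC106509556, on chromosome 2, had CTCF at 61.1 and 78.6 and H3K4me3 in neither replicate. LOC110262282 had CTCF at 50.5 and 83.6 and LOC102166202 at 61.1 and 72.2, and in both the summit was within 100 bp of the TSS. LOC110261180, inside GREB1L, had 60.4 and 71.9, and LOC110261023, inside SHANK1, had 71.2 and 61.0. Apart from LOC106507592, the H3K4me3 fold enrichment of these genes did not exceed 10.3 (LOC102166202, replicate 1), below the median of 16.7 over lncRNA TSSs with H3K4me3 in that library.

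**Figure D5:**
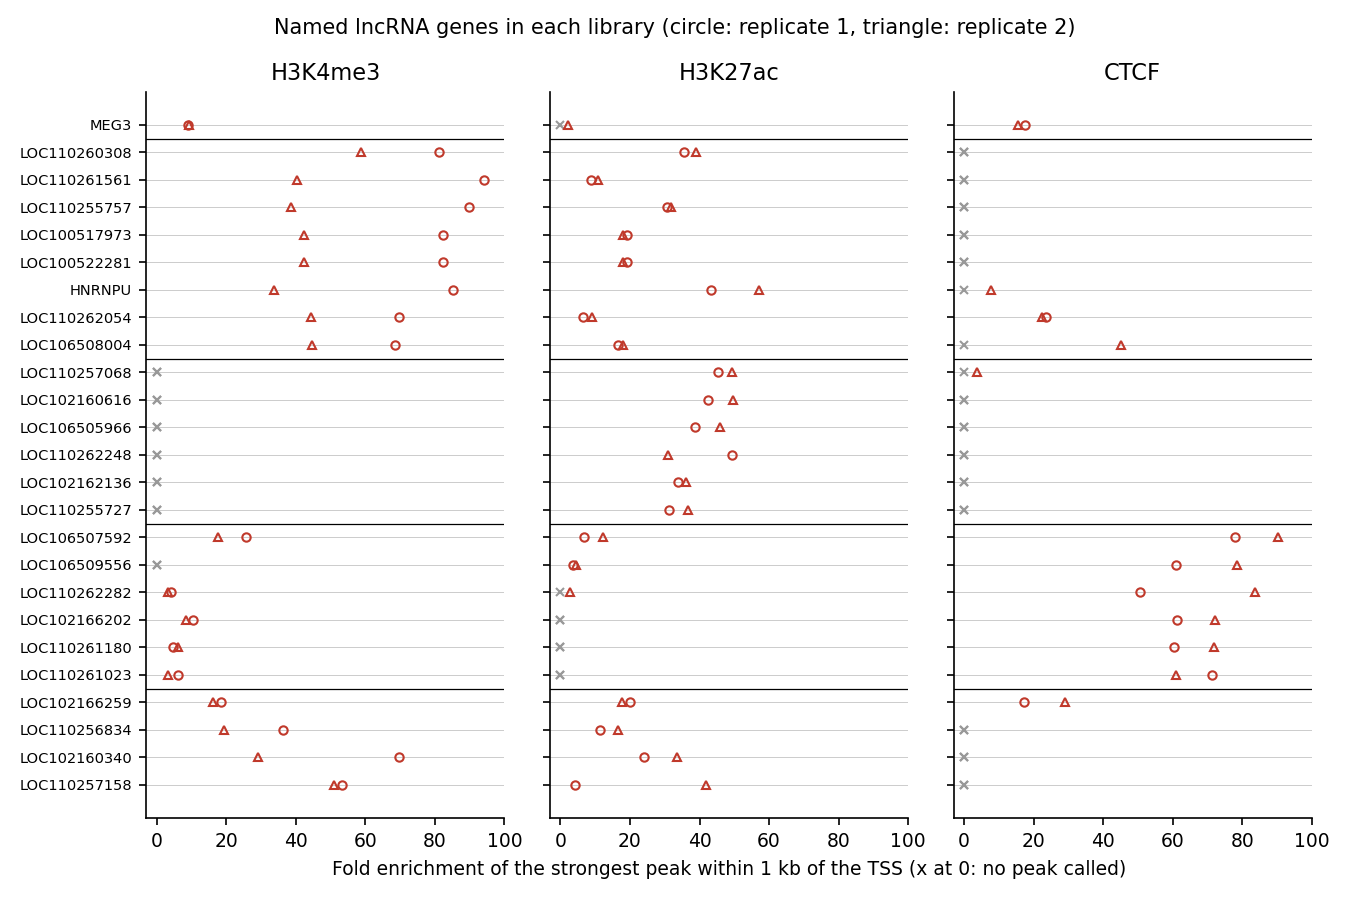
Fold enrichment of the strongest peak within 1 kb of the TSS in each library (linear axis), for MEG3, the 8 lncRNA genes of highest H3K4me3, the 6 of highest H3K27ac without H3K4me3, the 6 of highest CTCF and the 4 of widest H3K4me3, divided by lines from top to bottom. Circles are replicate 1, triangles replicate 2, and a cross at 0 means that no peak reached within 1 kb of the TSS. H3K4me3 of the second group is higher in replicate 1 than in replicate 2 in all 8 genes, as for LOC110261561 (94.2 and 40.4).

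The 4 widest H3K4me3 peaks at lncRNA TSSs lay next to or inside developmental transcription factor genes or a collagen gene. LOC102166259, on chromosome 12, starts 10.9 kb from HOXB5, in the HOX cluster that sets position along the body axis, under H3K4me3 peaks of 22750 and 33542 bp, with fold enrichments of 18.4 and 16.2. Their summits lay 18959 and 18748 bp downstream of the TSS, so that these values are those of the summits and not of the TSS. LOC110256834 starts inside EBF3, which encodes a transcription factor, with peaks of 16919 and 29796 bp and summits 12640 and 11379 bp downstream. LOC102160340 starts inside GATA2, also on the opposite strand, with peaks of 15626 and 15217 bp at 69.7 and 29.1 and summits at -1109 and -1155 bp. LOC110257158 starts inside COL5A2, which encodes a fibrillar collagen chain, with peaks of 11004 and 14916 bp and summits 10157 and 8380 bp downstream. Its H3K27ac was 4.29 in replicate 1 and 41.9 in replicate 2, from peaks with the summit at -2618 and 10078 bp from the TSS.

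Some lncRNA genes have a developmental transcription factor as their nearest protein-coding gene. H3K4me3 and H3K27ac in both replicates were at 16.5% and 20.6% of all 4234 lncRNA genes and at 55.4% and 50.1% of all genes. Among 50 mesenchymal factors, 26 were the nearest protein-coding gene of 55 lncRNA genes, of which 14 (25.5%) had H3K4me3 and 17 (30.9%) H3K27ac in both replicates. Among 46 neural factors, 19 were nearest to 33 lncRNA genes, of which 10 (30.3%) had H3K4me3 and 4 (12.1%) H3K27ac. The factors themselves had H3K4me3 in 48 and 40 cases and H3K27ac in 44 and 10. The lists were chosen with results for these data known and share no control for distance, and the difference between them was not tested.

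The genes named here were taken, in order of distance from the factor, among those with H3K4me3 in both replicates, so that its presence at them is no result. Near mesenchymal factors, LOC110262240, 10.5 kb from TWIST1, which drives mesenchymal identity, had H3K4me3 at 35.0 and 24.0 and H3K27ac at 33.5 and 40.6. Those H3K27ac peaks were 14566 and 14692 bp wide with summits 9173 and 9739 bp downstream of the TSS, so that the values are those of the summits and not of the TSS. LOC100512907, 59.6 kb from SOX4, had H3K4me3 at 32.2 and 26.5 and H3K27ac at 19.5 and 19.2. LOC106509797, 143 kb from MEIS1, had H3K4me3 at 55.2 and 28.8, H3K27ac at 29.6 and 31.3 and CTCF at 17.2 and 24.2. LOC106505423, 16.1 kb from MEOX1, and LOC106509501, 19.4 kb from NR2F1, had H3K4me3 at 42.5 and 19.04, and at 27.5 and 18.5, with H3K27ac between 3.26 and 8.14. LOC110256791, 46.4 kb from TBX3, had H3K4me3 at 10.2 and 8.14 and no H3K27ac peak. Acetylation at these TSSs thus ranged from strong peaks at or over the TSS to none.

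Near neural factors, several lncRNA TSSs had H3K4me3 without acetylation. LOC106507805, 5.66 kb from ATOH1, which specifies hair cells and cerebellar granule neurons, had H3K4me3 at 31.4 and 13.1. LOC102158810, 11.8 kb from BARHL2, had 18.3 and 14.3 with summits at -2049 and -1895 bp. LOC102167050, 14.0 kb from ONECUT1, had 23.2 and 16.4. None of these 3 had an H3K27ac peak within 1 kb in either replicate. The exceptions were near ZIC genes and NEUROD2: LOC106505375, inside ZIC4, had H3K4me3 at 41.8 and 26.1 and H3K27ac at 22.8 and 26.0, and LOC106505376, 14.2 kb from ZIC1, had H3K27ac at 18.7 and 14.9. The H3K27ac summits lay at 1061 and -2917 bp from the TSS of the former and at -7685 and -393 bp from that of the latter. The H3K4me3 summits of LOC106505375 lay at -2858 and -2687 bp. LOC106508354, 33.1 kb from ZIC4, had H3K27ac at 6.18 and 7.06, and LOC102168162, 29.1 kb from NEUROD2, had 6.31 and 7.55.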

How the data were processed

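ChIP-seq of H3K4me3, H3K27ac and CTCF in untreated PEFs was analysed from 6 deposited peak lists, with 2 replicates for each mark, and marks and numbers were taken from the sample labels. The 2 input libraries were not analysed here. Bowtie2 was used by the authors for mapping, and fragments entered only if both ends mapped uniquely and the fragment was no duplicate. Narrow peaks came from MACS2, library by library (versions not given in the sources used here). The deposited lists give the fold enrichment of each peak (a ratio over the control) and its q-value as −log10, and the highest q-value was between 0.0432 and 0.0499. This is above the threshold stated in the methods, so that the threshold behind the lists is not known, and the lists were used as deposited. They hold no read counts, so that depth per gene is unknown. There were 37932 and 43516 peaks for H3K4me3, 74983 and 81164 for H3K27ac, and 40289 and 44682 for CTCF. Peaks on chromosome Y and unplaced scaffolds were left out.

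The labels name Sscrofa11.1, and genes came from its RefSeq annotation. The TSS was the 5′ end of the gene, and a gene had a peak when any base of a peak lay within 1 kb of it. Fold enrichment was that of the strongest such peak, and it belongs to the summit, which can lie more than 1 kb from the TSS. Shares have 95% Wilson intervals, which cover counting of genes only, and SDs over replicates. Gene classes were compared within libraries by an exact permutation test. Analyses used Python 3.11.15, numpy 2.4.6, pandas 2.3.3 and scipy 1.17.1, and counting at TSSs was tested on simulated data. CpG ratio was the number of CpGs times the length, divided by the product of C and G numbers. Sequence was available for 28074 of the 28077 genes. Named lncRNA genes were MEG3 as the textbook symbol found, the 8 of highest H3K4me3, the 6 of highest H3K27ac without H3K4me3 in either replicate, the 6 of highest CTCF, the 5 of widest H3K4me3, and, for each list of factors, up to 8 with H3K4me3 in both replicates and a listed factor as the nearest protein-coding gene, in order of distance. Of these, 2 are not reported here. The members and lists were chosen with earlier results of these data known. The alternatives changed the window to 500 bp, required summits within 1 kb or a −log10 q-value of 5 or more, used other isolation rules, kept genes with 2 or more exons, or left out 1 replicate.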

Additional observations from a re-analysis of the deposited data

How the results depend on the processing

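The differences between lncRNA and protein-coding genes kept their sign under all 10 alternatives for each mark, with -54.0 to -43.9 points for H3K4me3, -41.3 to -33.7 for H3K27ac and -12.7 to -9.97 for CTCF, and an exact permutation p of 0.5, the smallest possible, wherever both replicates entered. With each replicate left out, the lncRNA share was 17.3% to 18.5% for H3K4me3, 22.2% to 22.7% for H3K27ac and 8.15% to 9.85% for CTCF. The shares moved by more than the spread between replicates as follows. With peaks of a −log10 q-value of at least 5, H3K4me3 was at 16.4% and H3K27ac at 20.04% of lncRNA TSSs, and 72.8% of lncRNA TSSs with H3K4me3 had H3K27ac. A window of 500 bp gave 15.4% for H3K4me3, 19.3% for H3K27ac and 6.22% for CTCF, and summits within 1 kb gave 13.7%, 15.0% and 6.97%. More than 20 kb from protein-coding TSSs (3364 lncRNA genes), the shares were 15.6%, 20.7% and 7.70%. With distance measured to every protein-coding transcript start (4122 genes), H3K4me3 was at 16.9% and H3K27ac at 21.6%. Without the 46 genes named after protein-coding genes, an alternative chosen after the annotation was seen, H3K27ac was at 21.8% and 73.7% of lncRNA TSSs with H3K4me3 had H3K27ac. No paired analysis was possible because the tested comparison is between gene classes within each library. Where H3K4me3 and H3K27ac libraries of the same number were set side by side, the labels give that number no meaning and no test was run. The lists hold called peaks, so that a TSS without one may carry a mark below the calling threshold.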

Other observations

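Chromosome Y, which the comparisons do not use, has 26 lncRNA genes more than 5 kb from its protein-coding TSSs. H3K4me3 and H3K27ac peaks lay within 1 kb of 1 of the 26 in both replicates, and CTCF peaks of 0 of 26. Of the 73 protein-coding genes on this chromosome, 1 had H3K4me3, 1 had H3K27ac and 0 had CTCF in each replicate. The marked gene was CD99, which carries the name of a protein-coding gene. The libraries held 5 to 13 histone peaks and 1 CTCF peak each on chromosome Y. The sex of the fetuses is not given, so that few peaks here cannot be read as a lack of the marks.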
